A study of Mus musculus with 6 samples.

Results

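The SOCS family (suppressors of cytokine signalling: Cish and Socs1 to Socs7) was examined together with Il7r, which encodes the alpha chain of the interleukin-7 receptor, and Stat5b, a transcription factor activated by that receptor. These 10 genes were selected by symbol. All 10 are in the count table of 43430 genes, 9 of them are among the 16448 rows of the authors' normalized table, and the same 9 passed the filter on low counts among 13039 genes tested. The gene missing from both of the smaller sets was Socs2. RNA was sequenced from FACS-sorted CD4+CD8+ double-positive thymocytes of C57BL/6 mice. The KO group held 3 libraries of genotype Mettl14fl/fl; CD4-Cre+, in which the CD4 promoter drives the recombinase from the late double-negative or double-positive stage, and the WT group held 3 libraries of littermate controls, labelled WT with no statement on floxed alleles or Cre. The labels do not tie libraries to individual mice; p-values below therefore reflect differences among libraries, possibly only technical ones.

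Interleukin-7 binds a receptor made of the Il7r product and the common gamma chain, the kinases JAK1 and JAK3 then phosphorylate STAT5A and STAT5B, and these enter the nucleus as dimers and switch on target genes. Cish and several SOCS genes are such targets, and their proteins close the loop by binding the receptor or kinase through an SH2 domain and recruiting an elongin and cullin ubiquitin ligase through the SOCS box. In the mouse thymus Il7r is switched off at the double-positive stage and returns on positively selected cells, while Socs1 is abundant at the double-positive stage and restrains cytokine signalling there. N6-methyladenosine (m6A) is written on mRNA by a complex of Mettl3 and Mettl14, and in mouse peripheral CD4 T cells without Mettl3 the mRNAs of Socs1, Socs3 and Cish are known to decay more slowly. The question put to these data was whether those mRNAs, the other family members and the receptor that they restrain differed in double-positive thymocytes without Mettl14.

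Of the 10 genes, Cish differed most between the genotypes, at 1.75 ± 0.391 CPM in KO and 0.919 ± 0.135 CPM in WT (SD, n = 3 each; CPM is the count scaled by the TMM effective library size). Socs5 was 17.8% higher in KO, and the other 7 tested genes had overlapping groups. Of the 9 tested genes, 0 passed an adjusted p of 0.05 in edgeR's quasi-likelihood test, against 0.0383% of all genes tested (5 of 13039), and 0 passed in DESeq2, where 0.711% of genes did, or in the authors' deposited table, where 0.762% did. At an unadjusted p under 0.05 there was 1 gene, Cish, by edgeR and by DESeq2, where 6.72% of all genes tested lay under that p in edgeR. The groups did not overlap for 2 of the 9, both higher in KO, where 12.6% of all genes tested had groups that did not overlap in either direction 6.59% had KO wholly above WT and 5.97% had KO wholly below WT. Log2 fold changes (KO minus WT) were above 0 for 6 of the 9, against 48.9% of all genes tested, and their median was 0.07, against -0.0040 over all genes tested.

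**Figure D1:**
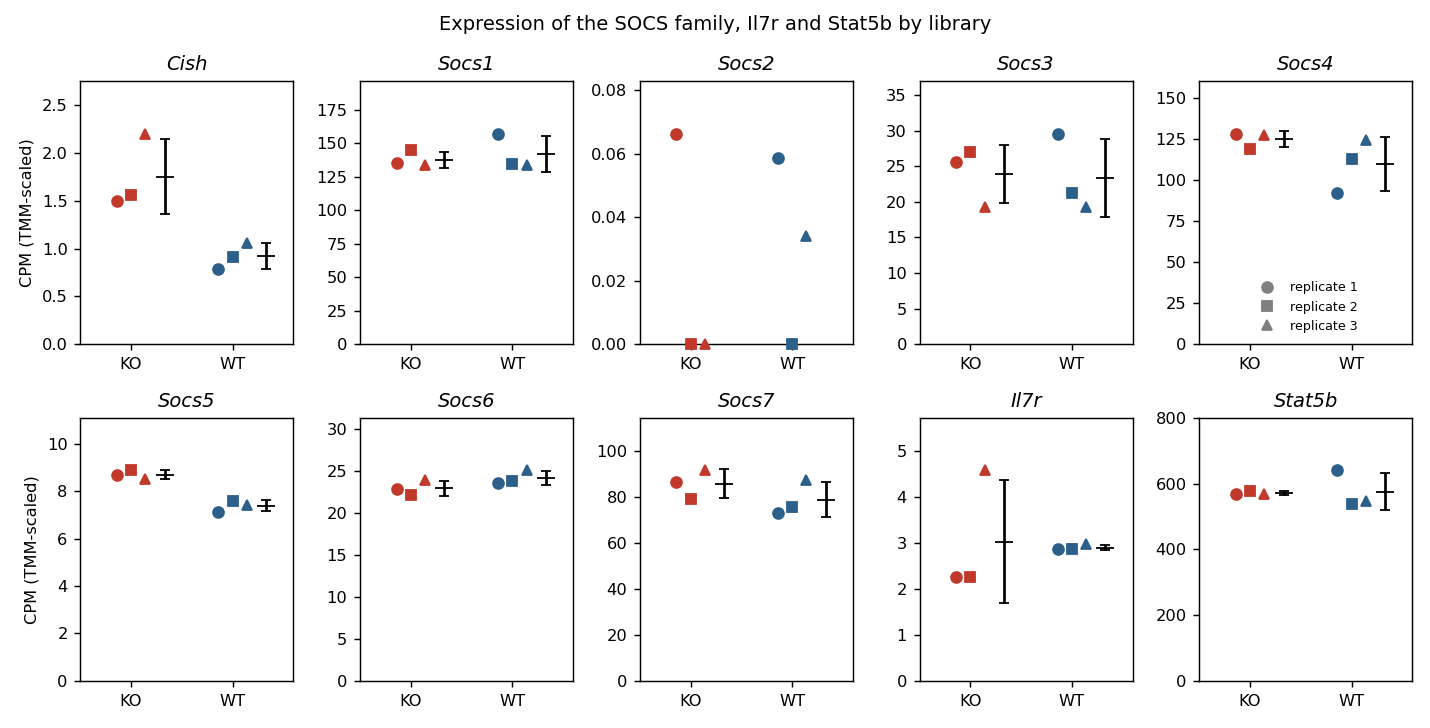
TMM-scaled CPM of each gene (vertical axes, from 0, each gene on its own scale) in the 3 KO libraries (red, left) and the 3 WT libraries (blue, right), with the mean and SD as a black bar beside each group except for Socs2, which had 0 to 2 counts per library. Cish and Socs5 are the genes whose KO points lie wholly above their WT points, and Il7r shows 1 KO library at 4.59 CPM, above the other 5.

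The targeted gene was lower in KO in the counts. Mettl14 was at 42.2, 40.3 and 36.4 CPM in KO libraries (replicates 1 to 3), against 52.1, 58.8 and 55.8 CPM in WT libraries. The groups did not overlap, with KO minus WT at -0.49 on the log2 scale (SE 0.086, edgeR adjusted p = 0.289). The labels do not name the floxed exons, and reads from the rest of the gene are counted too, so this level is no measure of intact transcript. Mettl3 averaged 62.4 CPM in KO and 66.6 CPM in WT (edgeR adjusted p = 0.809).

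Gene counts per library ranged from 29500254 to 33377056. The 10 double-positive markers (among them Cd4, Cd8a and Rag1) were all expressed and summed to 15604 to 16563 CPM in KO and 14800 to 16654 CPM in WT. The first principal component (37.85% of the variance) placed KO replicates 1 to 3 at -32.2, -8.52 and -17.1. WT replicates 1 to 3 were at 38.9, 16.5 and 2.36, so the genotypes lay apart on it. WT replicate 1 was the most distant library there, and also on 12 immediate early genes such as Fos and Jun. These genes summed to 620 to 695 CPM in KO and to 1454, 569 and 612 CPM in WT replicates 1 to 3. Interferon-stimulated genes (16 in the list) summed to 495 to 673 CPM in KO and 427 to 487 CPM in WT. Double-negative stage markers (9 in the list) summed to 42.2 to 67.4 CPM in KO and at most 43.3 CPM in WT, and 10 mature single-positive markers to 362 to 403 CPM in KO and 357 to 377 CPM in WT. Myeloid and B cell markers (14 in the list) summed to 903 to 935 CPM in KO and 883 to 939 CPM in WT, of which Ighm alone was 771 to 824 CPM in KO and 771 to 828 CPM in WT, and 5 of the 14 averaged under 1 CPM. At an unadjusted p under 0.05 in edgeR, 11 of 16 interferon-stimulated genes and 4 of 11 tested myeloid and B cell markers were higher in KO, and of 7 tested double-negative markers 4 were higher and 1 lower. Of 11 tested immediate early genes 3 were lower. Of the 10 double-positive and the 10 mature single-positive markers, 0 were under that p. Over all genes tested, 3.41% were under it and higher in KO, and 6.72% in either direction.

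Cish (ENSMUSG00000032578, mm10 chromosome 9, 107296026 to 107302784, plus strand) encodes the founding member of the family, an SH2 protein that competes with STAT5 for receptor binding sites and also dampens T cell receptor signalling. It had 45, 46 and 71 counts in KO libraries, against 27, 30 and 31 counts in WT libraries. In CPM these were 1.49, 1.56 and 2.20 in KO and 0.790, 0.908 and 1.06 in WT. KO replicate 3 was the highest library, and the lowest KO library lay above the highest WT library.

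Summed over libraries, Cish had 162 counts in KO (exact Poisson 95% interval 138 to 189) and 88 counts in WT (70.6 to 108); these intervals cover counting error only. The fitted log2 fold change was 0.93 (SE 0.27), a 1.91-fold difference with a 95% interval of 1.23 to 2.96. The gene missed the threshold over all genes tested (edgeR unadjusted p = 0.00978, adjusted p = 0.630). Of all genes tested, 0.752% had a log2 fold change as large or larger in that direction. DESeq2 gave 0.94 (adjusted p = 0.389), and 0.92 stands in the authors' deposited table (adjusted p = 0.342).

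With any single library left out, the log2 fold change of Cish ran from 0.73 without KO replicate 3 to 1.05 without WT replicate 3. Its groups did not overlap, so the direction was fixed in advance in these fits and only the size could vary. The 12 alternative settings gave edgeR or DESeq2 adjusted p-values from 0.289 to 0.990. GENCODE M21 places 2 genes opposite Cish, Gm17040 and Gm17041, and both had 0 CPM in either group. The interferon-stimulated sum was higher in every KO library than in any WT library. Within KO that sum was lowest in replicate 3 (495 CPM), and Cish was highest there. Some markers of other cells were uneven among KO libraries: Cd74, of antigen-presenting cells, was at 2.42, 18.7 and 10.5 CPM in KO libraries, against 2.69, 5.15 and 3.52 CPM in WT libraries, and Lyz2, of myeloid cells, was at 0.497, 0.915 and 4.28 CPM in KO libraries, against 0.293, 0.727 and 1.06 CPM in WT libraries. Cd74 and Lyz2 were named after their values were seen. Of 11 tested myeloid and B cell markers, 9 had a log2 fold change above 0 and 2 below, Itgam at -0.24 and Ighm at -0.03. The part of interferon-stimulated transcripts or of other cells' transcripts in the Cish difference was not tested. In bulk RNA, more cells that express a gene and more RNA per cell cannot be told apart.

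The Cish promoter is printed because Cish is a textbook STAT5 target and the gene with the largest difference here. It was searched for TTCNNNGAA, the palindromic core to which STAT dimers bind, whose reverse complement is the same motif, so that a single search covers both strands. Sequences are RefSeq windows on GRCm38.p6 of 250 bases before and 50 bases after a gene start, and 6 of the 10 genes matched that table by symbol, with 7 windows. Socs3 and Il7r are shown beside Cish because theirs were the other windows with a match, and capitals mark the match.
Cish, chr9:107296409-107296708, plus strand: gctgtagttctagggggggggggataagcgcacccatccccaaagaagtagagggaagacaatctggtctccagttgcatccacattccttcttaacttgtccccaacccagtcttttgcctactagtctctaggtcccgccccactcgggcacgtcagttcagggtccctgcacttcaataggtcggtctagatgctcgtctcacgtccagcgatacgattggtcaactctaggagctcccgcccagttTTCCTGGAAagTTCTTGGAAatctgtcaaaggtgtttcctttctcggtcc
Socs3, chr11:117969317-117969616, minus strand: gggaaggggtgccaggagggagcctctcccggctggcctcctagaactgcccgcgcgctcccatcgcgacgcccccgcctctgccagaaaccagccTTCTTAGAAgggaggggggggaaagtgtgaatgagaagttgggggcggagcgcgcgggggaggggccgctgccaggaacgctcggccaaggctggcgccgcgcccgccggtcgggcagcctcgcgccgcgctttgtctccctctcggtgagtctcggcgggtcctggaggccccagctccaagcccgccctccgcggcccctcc
Il7r, chr15:9529827-9530126, minus strand: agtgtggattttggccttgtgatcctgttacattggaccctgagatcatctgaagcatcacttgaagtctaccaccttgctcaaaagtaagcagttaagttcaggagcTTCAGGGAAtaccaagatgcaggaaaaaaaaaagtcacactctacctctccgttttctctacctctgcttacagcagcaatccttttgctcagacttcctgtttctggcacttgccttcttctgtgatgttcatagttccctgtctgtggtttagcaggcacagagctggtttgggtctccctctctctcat
The Cish window held 2 matches, TTCCTGGAA and TTCTTGGAA, the second beginning 11 bases after the first, and both lie at or just after this RefSeq start. Socs3 and Il7r held 1 match each, and the windows of Socs1, Socs4 and Stat5b held none. Of 32851 promoter windows of this length, 8.30% held at least 1 match and 0.457% held 2 or more. A match is a description of these letters and was not measured as a binding site here.

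Socs1 (ENSMUSG00000038037, chromosome 16, 10783808 to 10785536, minus strand) encodes the strongest inhibitor of the family, which blocks JAK kinases directly through a kinase inhibitory region. It was at 135, 145 and 134 CPM in KO libraries, against 157, 135 and 134 CPM in WT libraries. Apart from WT replicate 1, the highest, all libraries lay between 133.5 and 144.7 CPM. KO minus WT was -0.04 on the log2 scale (SE 0.083, 95% interval -0.23 to 0.15, edgeR adjusted p = 0.938), so a change of more than 14.9% downward or 10.9% upward lies outside the interval. Without WT replicate 1 the log2 fold change was 0.04.

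Socs3 (ENSMUSG00000053113, chromosome 11, 117966079 to 117970047, minus strand) encodes the other member with a kinase inhibitory region, best known for silencing signalling through the shared receptor subunit gp130. It was at 25.6, 27.0 and 19.2 CPM in KO libraries, against 29.6, 21.3 and 19.3 CPM in WT libraries. The groups overlapped over nearly their whole range, and replicate 3 was the lowest library of both. For Socs3 KO minus WT was 0.03 on the log2 scale (SE 0.19, 95% interval -0.41 to 0.47, edgeR adjusted p = 0.980). That value moved to 0.24 without WT replicate 1, the library with the high immediate early genes, and to -0.08 without WT replicate 3.

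Socs2 (ENSMUSG00000020027, chromosome 10, 95385362 to 95417180, minus strand), the inhibitor of growth hormone signalling, had 2, 0 and 0 counts in KO libraries, against 2, 0 and 1 counts in WT libraries. All libraries were under the floor of 3 counts, which is 0.0878 to 0.102 CPM here. No fold change is given, since a difference was not detectable at this depth.

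Socs4 and Socs5 form a closely related pair that carries a long, conserved amino-terminal region and is linked to control of the epidermal growth factor receptor. Socs5 (ENSMUSG00000037104, chromosome 17, 87107679 to 87137583, plus strand) was at 8.69, 8.87 and 8.52 CPM in KO libraries, against 7.14, 7.60 and 7.41 CPM in WT libraries. The KO libraries lay wholly above the WT libraries, and the spread within each group was 2.02% of the mean in KO and 3.12% in WT. Socs5 had 217 to 275 counts per library, at which counting error alone would give a wider spread. These spreads are therefore no measure of the precision of the replicates. The log2 fold change of 0.24 (SE 0.13, 95% interval -0.06 to 0.53) missed the threshold (edgeR unadjusted p = 0.103, adjusted p = 0.768). It ran from 0.21 to 0.26 when any single library was left out, where the separated groups fixed its direction in advance.

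Socs4 (ENSMUSG00000048379, chromosome 14, 47276931 to 47296098, plus strand) was at 128, 119 and 127 CPM in KO libraries, against 92.3, 113 and 124 CPM in WT libraries. WT replicate 3 lay within the KO range, and WT replicate 1 was the lowest library. With all libraries the log2 difference was 0.19 (SE 0.11, 95% interval -0.06 to 0.44, edgeR adjusted p = 0.776), which was 0.08 without WT replicate 1 and 0.29 without WT replicate 3.

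Socs6 and Socs7 are the members tied to insulin receptor substrates and, for Socs6, to turnover of the T cell kinase Lck. Socs6 (ENSMUSG00000056153, chromosome 18, 88665224 to 88927481, minus strand) was at 22.9, 22.1 and 23.9 CPM in KO libraries, against 23.6, 23.8 and 25.1 CPM in WT libraries. KO replicate 3 lay within the WT range. Its log2 fold change of -0.07 (SE 0.087, 95% interval -0.27 to 0.13) missed the threshold (edgeR adjusted p = 0.883).

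Socs7 (ENSMUSG00000038485, chromosome 11, 97362551 to 97398542, plus strand) was at 86.6, 79.2 and 91.6 CPM in KO libraries, against 73.1, 75.8 and 87.5 CPM in WT libraries. WT replicate 3 lay above 2 of the 3 KO libraries. Socs7 differed by 0.12 on the log2 scale (SE 0.093, 95% interval -0.09 to 0.34, edgeR adjusted p = 0.817). It was 0.07 without WT replicate 1, 0.08 without KO replicate 3, 0.18 without KO replicate 2 and 0.21 without WT replicate 3 (for the last, edgeR adjusted p = 0.391).

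**Figure D2:**
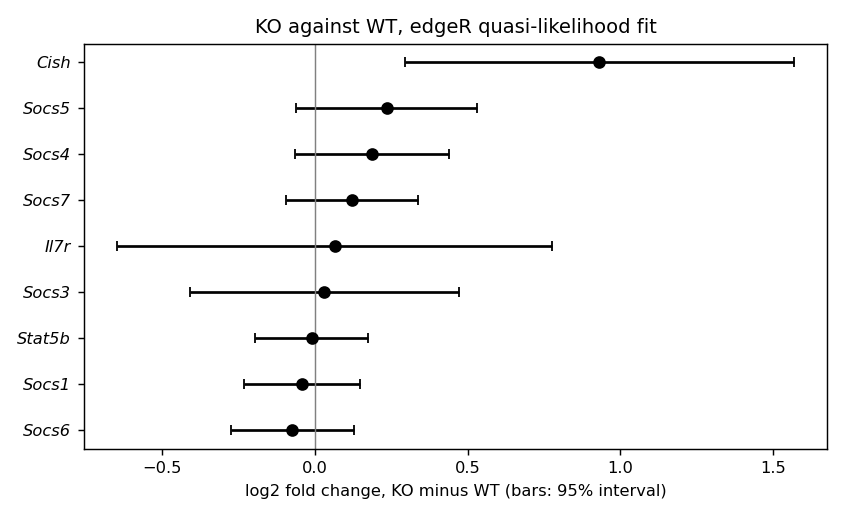
Log2 fold change (KO minus WT, horizontal axis) of the 9 tested genes with 95% intervals from the edgeR fit. The interval of Cish, from 0.30 to 1.57, is the one that does not reach 0 before adjustment, and that of Il7r is the widest, from -0.64 to 0.78.

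Il7r (ENSMUSG00000003882, chromosome 15, 9506161 to 9529876, minus strand) was at 2.25, 2.27 and 4.59 CPM in KO libraries, against 2.87, 2.88 and 2.97 CPM in WT libraries. KO replicates 1 and 2 lay below all WT libraries, and KO replicate 3 lay above all of them. The counts behind these values were 68, 67 and 148 in KO and 98, 95 and 87 in WT. The count of KO replicate 3 had an exact Poisson 95% interval of 125 to 174, and those of KO replicates 1 and 2 were 52.8 to 86.2 and 51.9 to 85.1. These intervals cover counting error only, and replicates of both groups differed by more than that over all genes.

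The KO spread of Il7r was 44.2% of the mean, against 1.99% in WT. The WT counts had exact Poisson 95% intervals of 79.6 to 119, 76.9 to 116 and 69.7 to 107 for replicates 1 to 3. The WT values thus lay closer together than counting error alone would place them. Their spread is therefore no measure of how much WT libraries vary. Over all libraries the log2 fold change of Il7r came to 0.07 (SE 0.31, 95% interval -0.64 to 0.78, edgeR adjusted p = 0.975). Without KO replicate 3 it was -0.36 (edgeR adjusted p = 0.879) and with replicates 1 and 2 alone -0.34, so the direction rested on that library; with the replicate number or the 2-level term as a block it was -0.01. In the authors' deposited table it is -0.0045 (adjusted p = 0.999).

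Il7r returns on mature single-positive thymocytes, so their markers are given beside it. The 10 markers summed to 374, 403 and 362 CPM in KO replicates 1 to 3, lowest in the library with the highest Il7r. Ccr7 alone was at 5.90, 6.67 and 11.5 CPM in KO libraries, against 9.42, 7.60 and 8.03 CPM in WT libraries, and Klf2 was at 1.86, 2.10 and 4.71 CPM in KO libraries, against 5.15, 3.57 and 4.99 CPM in WT libraries. Both were highest of the KO libraries in replicate 3, as Il7r was. They were named after their values were seen, and their part in the Il7r result was not tested.

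Stat5b (ENSMUSG00000020919, chromosome 11, 100780731 to 100850724, minus strand) was at 567, 578 and 569 CPM in KO libraries, against 640, 538 and 548 CPM in WT libraries. The 3 KO libraries, with an SD of 1.04% of their mean, lay inside the WT range, whose upper end was WT replicate 1. KO minus WT was -0.01 on the log2 scale, with a 95% interval of -0.19 to 0.18 (SE 0.080, edgeR adjusted p = 0.985). Its paralog Stat5a averaged 186 CPM in KO and 191 CPM in WT, a log2 difference of -0.04 (edgeR adjusted p = 0.929). Reads in stretches that the paralogs share can be lost or misplaced by the counting.

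**Figure D3:**
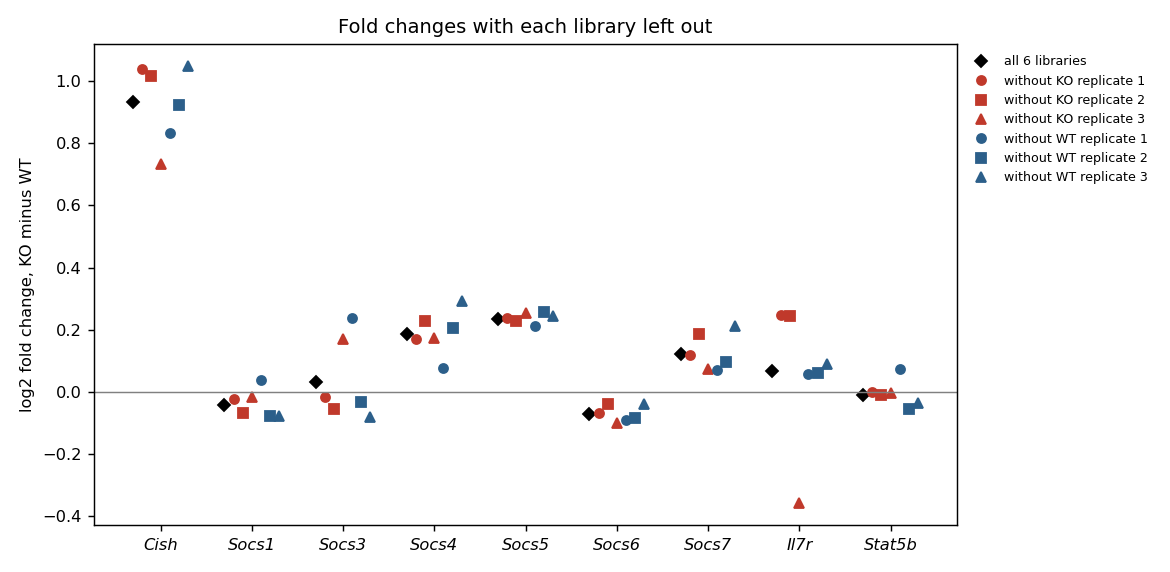
Log2 fold change (KO minus WT, vertical axis) of each tested gene with all 6 libraries (black) and with each library left out in turn (red for a KO library, blue for a WT library, shape for its replicate number). Cish stays between 0.73 and 1.05, Il7r moves to -0.36 without KO replicate 3, and Socs3 and Stat5b move furthest without WT replicate 1, to 0.24 and 0.07.

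To compare genes with each other, levels were taken as CPM per kilobase of the principal coding transcript in GENCODE M21. On that scale Stat5b was the highest, at 110 ± 1.14 in KO and 110 ± 10.8 in WT (SD, n = 3 each). Socs1 followed, at 47.4 ± 2.06 in KO and 48.8 ± 4.57 in WT, then Socs4 at 18.2 ± 0.741 and 16.0 ± 2.35. The deposited span of Socs1 is 1729 bases, shorter than the transcript of 2908 bases used for its level. Its level per kilobase may therefore be understated, and the order of Stat5b and Socs1 is not settled. Socs7 was at 12.2 ± 0.895 in KO and 11.2 ± 1.09 in WT. Socs3 was at 9.38 ± 1.61 and 9.16 ± 2.14, and its libraries overlapped with those of Socs7, so the order of these neighbours is not settled. Socs6 ranged from 3.66 to 3.96 in KO and from 3.91 to 4.16 in WT, and Socs5 at 1.87 ± 0.038 and 1.59 ± 0.050.

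At the low end Il7r was at 0.858 ± 0.379 CPM per kilobase in KO and 0.821 ± 0.016 in WT, and Cish at 0.614 ± 0.137 in KO and 0.323 ± 0.047 in WT. In KO the library ranges of Il7r and Cish overlapped, and in WT they did not. Socs2 did not exceed 0.030 in any library. The order of the 10 genes was the same per kilobase of merged exons. Socs1 thus stood at a level far above the inducible members Cish and Socs3 in both genotypes, and the receptor gene Il7r was among the lowest.

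**Figure D4:**
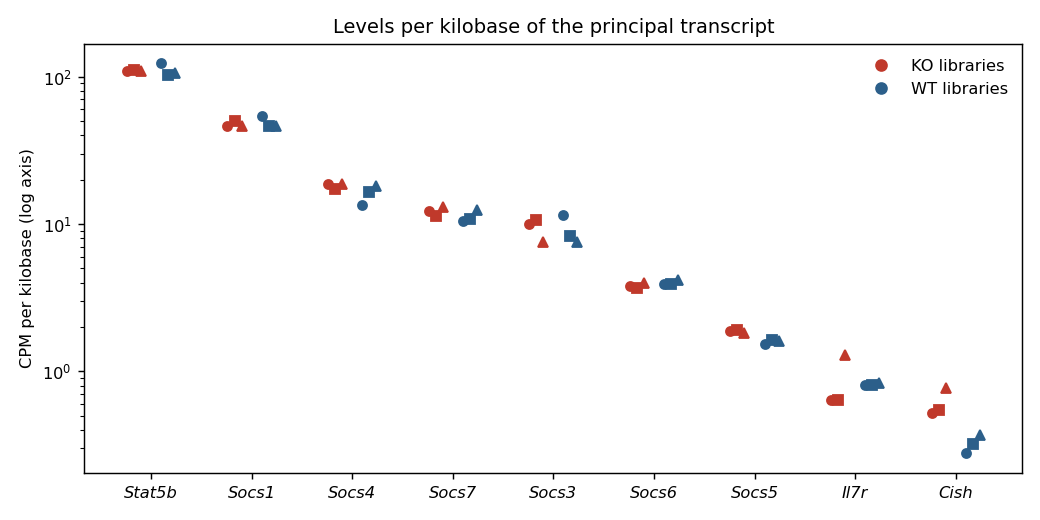
CPM per kilobase of the principal transcript (log axis) in KO libraries (red, left) and WT libraries (blue, right) for the 9 tested genes, ordered by their WT mean. Levels run from about 110 for Stat5b down to 0.323 for Cish in WT, and Cish is the gene where KO and WT points separate most.

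The methyltransferase complex prefers the letters GGACT among its targets, so these were counted in the principal transcripts, in the sense strand only. Cish held 4 in 2850 bases, or 1.40 per kilobase, the highest density of the 10 genes. Socs1 held 1 in 2908 bases (0.344 per kilobase) and Socs4 held 2 in 6877 bases (0.291 per kilobase), the lowest density. Socs3 held 3 (1.18 per kilobase), Socs7 held 9 (1.28 per kilobase), Il7r held 2 (0.565 per kilobase) and Stat5b held 6 (1.15 per kilobase). Over 11268 tested coding genes the median was 1.05 per kilobase, with quartiles of 0.635 and 1.54, and 92.0% of genes held at least 1. The densities of Socs2, Socs3, Socs5, Socs6, Socs7, Stat5b and Cish lay between those quartiles, and m6A itself was not measured here.

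The rest of the pathway was followed in lists chosen with earlier results of these data known. Of 77 genes, 69 were tested, and 0 passed over all genes tested in edgeR or in DESeq2. At an unadjusted p under 0.05 there were 3 in edgeR, all higher in KO and Bcl2 and Ccnd2 among them, against 3.41% of all genes tested in that direction, and the same 3 in DESeq2. Their median log2 fold change was 0.04. The groups did not overlap for 7 of the 69, all higher in KO, a share near the background of 6.59% of all genes tested with KO wholly above WT and 12.6% that separated in either direction.

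Among ligands and receptors of the interleukin-7 and common gamma chain family, Il7 had 0 CPM in every library and Tslp was too low to test. All 8 tested receptors had a log2 fold change above 0, from 0.01 to 0.40, but in none did the groups separate. Il21r, the interleukin-21 receptor, averaged 237 CPM in KO and 215 CPM in WT (edgeR adjusted p = 0.767), and Il9r 9.68 and 7.37 CPM (edgeR adjusted p = 0.790). The common gamma chain Il2rg averaged 255 CPM in KO and 248 CPM in WT, so the shared chain was far more abundant in counts than Il7r in both groups. Of the 12 other cytokine receptors tested, 6 were above 0 and 6 below. Ifnar2, a chain of the type I interferon receptor, was at 0.20 on the log2 scale, and Il6st, which encodes gp130, at -0.12 (edgeR adjusted p = 0.782 and 0.791).

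The JAK kinases of the pathway were close between genotypes. The 4 JAK genes had log2 fold changes from -0.11 (Jak3) to 0.07 (Jak1), with edgeR adjusted p-values of 0.866 or more. Among the other STAT genes, Stat2 was at 0.12 (edgeR adjusted p = 0.776).

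Partners of the SOCS box differed little between genotypes. The elongins, cullins and RING proteins (6 tested) had log2 fold changes between -0.03 and 0.05, with Cul5, the main scaffold of SOCS ligases, at 0.04 and Rnf7 at 0.05 (edgeR adjusted p = 0.923 and 0.935). Of 13 other negative regulators, 9 were above 0, with a median of 0.06. Ptpn6, the phosphatase SHP-1, averaged 326 CPM in KO and 281 CPM in WT (log2 fold change 0.22, edgeR adjusted p = 0.763). Cbl, a ubiquitin ligase for receptors and kinases, averaged 695 CPM in KO and 607 CPM in WT (0.20, edgeR adjusted p = 0.776).

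Genes listed as STAT5 targets, whichever way STAT5 acts on them, were split in sign. Of 12 tested, 6 were above 0 and 6 below, with a median log2 fold change of 0.01, and all 12 missed the threshold. The groups did not overlap for 3 of the 12 (Bcl2, Mcl1 and Ccnd2), all higher in KO. Over all genes tested, 6.59% had KO wholly above WT and 5.97% had KO wholly below WT. Bcl2, the anti-apoptotic gene that interleukin-7 maintains in lymphocytes, was at 26.1, 23.5 and 29.6 CPM in KO libraries, against 21.5, 21.2 and 21.4 CPM in WT libraries. Its groups did not overlap, and the log2 fold change was 0.31 (SE 0.11, edgeR unadjusted p = 0.0213, adjusted p = 0.705). Ccnd2, cyclin D2, was at 5.70, 6.54 and 11.3 CPM in KO libraries, against 3.57, 5.48 and 4.48 CPM in WT libraries. KO replicate 3, the library with the highest Il7r and Cish, was also the highest for Bcl2 and Ccnd2, whose log2 fold change was 0.80 (SE 0.29, edgeR unadjusted p = 0.0264, adjusted p = 0.713). Other targets in the list varied in that library. Lmo4 was at its highest there (66.3 CPM), Ccnd3 at its lowest of all libraries (1404 CPM), and Bcl2l1 at its lowest among KO libraries (312 CPM). Bcl2 was no longer under an unadjusted p of 0.05 in edgeR without KO replicate 3 or without WT replicate 2, and Ccnd2 without KO replicate 3, WT replicate 1 or WT replicate 3. Factors that act on Il7r (8 tested) ran from -0.03 to 0.23, with Ikzf1 at 0.16 and Runx3 at 0.23 (edgeR adjusted p = 0.767 and 0.833).

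**Figure D5:**
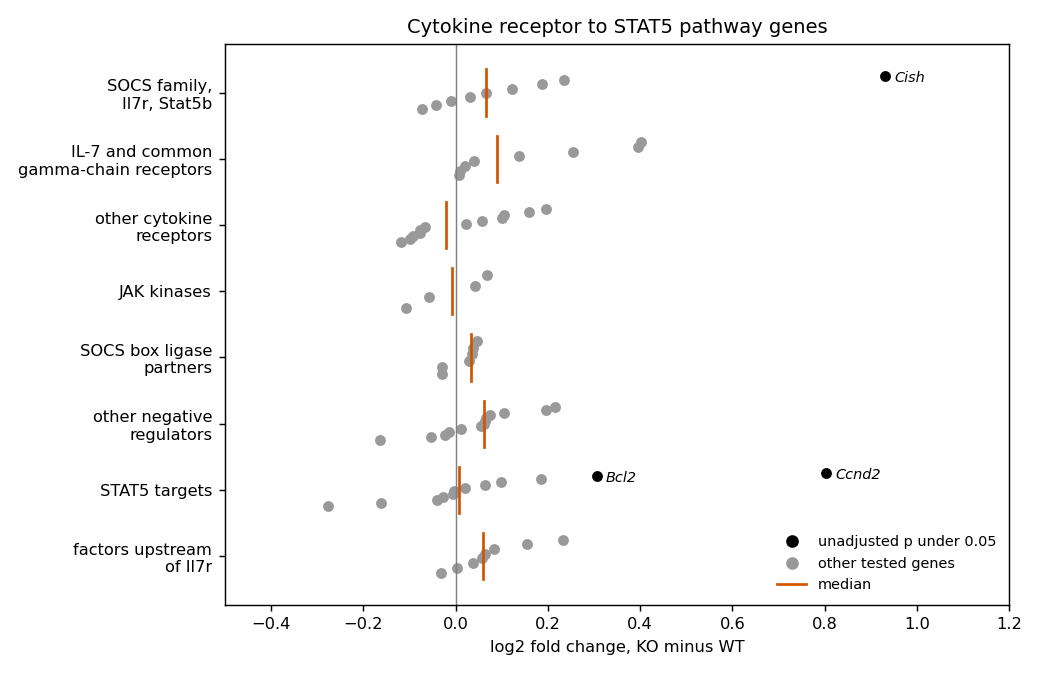
Log2 fold change (KO minus WT, horizontal axis) of each tested gene in the pathway lists (rows), with the list median as an orange line. Black points have an unadjusted p under 0.05 in edgeR: Cish at 0.93, Ccnd2 at 0.80 and Bcl2 at 0.31. The other STAT genes are not drawn.

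The genes whose levels followed a member most closely over the 6 libraries were named from 9033 or 9034 genes whose log2 CPM averaged 3 or more, by Pearson's r of log2 CPM, as a description of these libraries. Cish was followed by Herpud1 (r = 0.986), a gene of the endoplasmic reticulum stress response, which was at 48.3, 47.1 and 54.0 CPM in KO libraries, against 41.3, 42.1 and 44.1 CPM in WT libraries, and then by Sprtn (r = 0.984) and Man1a (r = 0.983). Socs1 was followed by Mtfr1l, Spo11 and Parn (r of 0.997 or more), all highest in WT replicate 1. Socs3 was followed by Zfp444, Tmc6 and Nr1h2 (r of 0.989 or more), which shared its high values in WT replicate 1 and KO replicates 1 and 2. Il7r was followed by Faah (r = 0.978) and Fastkd5 (r = 0.967), both highest in KO replicate 3. With 6 libraries and this many genes some will follow any pattern closely.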

How the data were processed

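RNA from sorted double-positive thymocytes was sequenced with an Illumina TruSeq kit, per the labels' protocols, and 3 KO and 3 WT libraries were compared. Trimmomatic 0.33, STAR 2.5.2, HTSeq and DESeq2 on mm10 are named in the submitters' processing notes. Strand setting, counting mode and annotation release: not given in the sources used here, so a gene and its antisense partner cannot be told apart. The authors deposited raw counts per gene, a normalized signal (the counts over a size factor for each library), and a DESeq2 comparison with log2 fold changes, p-values and a Wald score per gene. The name of that table has the word paired, without a label that explains it.

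Counts as deposited were tested with edgeR 4.0.16 (TMM, filterByExpr, two-sided quasi-likelihood test with group as the only term, Benjamini-Hochberg over 13039 genes, threshold 0.05) in R 4.3.3. SE was obtained from the log2 fold change and its F statistic. The tests were checked on simulated data. Reads without a feature were 12.3% to 15.2% and multiply aligned reads 22.6% to 23.9% of each library, and stayed out of library sizes. Replicates differed by more than sampling noise (lowest chi-square per degree of freedom 16.1). Alternatives were DESeq2 1.42.0, upper-quartile scaling, no filter, a replicate block, a 2-level block that sets replicate 3 apart, replicates 1 and 2 alone, and each library left out. Of 43430 identifiers, 42462 matched the name table. Promoters are RefSeq windows on GRCm38.p6, and transcript lengths come from GENCODE M21 on the same build.

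The members, lists and tests were chosen with earlier results of these data known. The genes named were the 10 members, Mettl14 and Mettl3, the 2 genes with the lowest p in each pathway list, and the 3 genes most alike to each of Cish, Socs1, Socs3 and Il7r; others were chosen after their values were seen. Some genes that this rule names are not reported here.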

Additional observations from a re-analysis of the deposited data

How the results depend on the processing

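Among the SOCS genes, Il7r and Stat5b, 0 were called under each of the 12 alternatives. Cish, Socs4, Socs5, Socs6 and Socs7 kept the sign of their log2 fold change in all 12. For Cish and Socs5, whose groups did not overlap, that sign was fixed in advance wherever libraries were left out. Cish had an unadjusted p (edgeR or DESeq2) between 0.0072 and 0.046 in the 12 alternatives. Socs4 was under 0.05 in edgeR without WT replicate 3 (0.027). The genes that changed sign all lay near 0 with all libraries. Il7r was at -0.0124 with the replicate block, -0.0124 with the 2-level block, -0.34 with replicates 1 and 2 alone and between -0.36 and 0.25 with a library left out. Socs1 ran from -0.0761 to 0.0388, Socs3 from -0.0808 to 0.24 and Stat5b from -0.0552 to 0.0743 with a library left out, and Stat5b was at 0.0030 with no filter on low counts. The cause was not tested. Over all genes tested, 5 were called in edgeR, 107 in DESeq2 (by a different test), 30 with no filter and 4 to 23 with a library left out (14 without KO replicate 2, 8 without WT replicate 1, 23 without WT replicate 3). The replicate block called 5. Same-numbered KO and WT libraries had correlations of their deviations of -0.149, 0.080 and 0.192, and not every library correlated best with its own number. Cish and Il7r rest on 27 to 148 counts per library, and Socs2 on 0 to 2.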

Other observations

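The deposited gene lengths are not the length of 1 transcript. For 1982 of 43430 genes the deposited length exceeds the span between the deposited start and end, and Cish is among them, with a length of 11071 bases over a span of 6759 bases. GENCODE M21 gives Cish 6419 bases of merged exons and a principal transcript of 2850 bases. Socs2 has a deposited length of 19870 bases, against 9531 bases of merged exons. A level per kilobase from the deposited lengths would therefore be lower for both than the levels given here, which do not use them. For Socs1 it would be higher, since its deposited length is 1220 bases over a span of 1729 bases, against 2908 bases of merged exons.

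In WT replicate 1, where immediate early genes summed to 1454 CPM, the members split in 2 directions. Socs1, Socs3 and Stat5b had their highest value of all 6 libraries there, at 157, 29.6 and 640 CPM, while Cish, Socs4, Socs5 and Socs7 had their lowest, at 0.790, 92.3, 7.14 and 73.1 CPM. KO replicate 3 had the highest Il7r, Cish and Socs7 of the 6 libraries, at 4.59, 2.20 and 91.6 CPM, and the lowest Socs3, at 19.2 CPM.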
